A study of Mus musculus with 4 samples.

Results

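Collagen genes were followed in lung tumors that urethane had induced, and in non-tumor lung, in mice with and without Nrf2. A gene was taken as a collagen gene if its current symbol is Col, a number, a, and a number, and it was kept if 1 or more of the 4 arrays read a probe of it well above background. This gave 33 of the 42 collagen genes on the array, out of 20553 genes kept by the same background flag among 32300 on the array. The 33 comprised 10 of 11 fibrillar collagens, 5 of 6 basement membrane (type IV) collagens and 18 of 25 others, and 28 of the 33 were above background on all 4 arrays. The 9 that were above it on no array were Col4a5, Col6a6, Col9a1, Col9a2, Col10a1, Col19a1, Col24a1, Col25a1 and Col28a1. Col6a3 and Col12a1 had no matched probe and were not analysed here.

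The animals were female ICR mice aged 6 months, of genotype Nrf2+/+ or Nrf2-/-, and all had been given urethane (ethyl carbamate, a lung carcinogen) by intraperitoneal injection at 1 g/kg, with tissue collected 16 weeks later. The 4 groups were, in this order, non-tumor lung of Nrf2+/+ mice, the same tissue of Nrf2-/- mice, tumor of Nrf2+/+ mice and tumor of Nrf2-/- mice. Lung without urethane is not part of the design, so non-tumor lung is the comparison tissue throughout. Tumors between 1.0 and 1.5 mm across were dissected from the lung surface, RNA of 8 mice was pooled per group, and each pool was hybridised to 1 Agilent array. Each comparison is therefore between a pair of pools with no replicate, and it carries no p-value. The sources used here do not say whether both tissues were taken from the same mice. The Nrf2+/+ non-tumor array had a slide to itself and the other 3 arrays shared one, so slide and group cannot be told apart in any tumor difference of Nrf2+/+ mice or any genotype difference of non-tumor lung. The tumor difference of Nrf2-/- mice and the genotype difference of tumor lie within 1 slide.

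Collagens are trimeric extracellular matrix proteins built from alpha chains, each chain encoded by its own gene. Fibrillar collagens such as types I and III form the tensile fibrils of the lung interstitium, while type IV collagens form the sheet-like network of basement membranes under epithelium and endothelium. The remaining types coat fibrils, form beaded filaments or short-chain networks, link basement membranes to the stroma, or sit in the cell membrane. Nrf2 (gene Nfe2l2) is a transcription factor that binds antioxidant response elements.

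Levels are given relative to each array: a relative level is the processed signal of a gene's probe divided by the 75th percentile of signals on that array. That percentile was between 555 and 760 intensity units, and the share of probes above background was between 53.5% and 62.9%, lower on the tumor arrays. A difference is on the log2 scale, so 1 is a 2-fold difference, and the value after ± is the scanner software's own error for the spots of that pair of arrays (median 0.20 for a collagen gene). That error covers the reading of the spots and not the spread between mice. Probes differ in how they bind, so relative levels are compared between arrays for the same gene and not between genes. Where a gene was not well above background on one array of a pair, the fold is given as a lower bound (at least). It was computed against the dimmest signal that still counted as above background on that array. The gene's own signal was used instead where that was brighter, as for Gp6 in Nrf2-/- tumor. Because some signals brighter than the dimmest did not count as above background, these bounds are approximate. Counts of genes past 2-fold use the measured signals, dim ones included, so a counted gene can have a bound under 2-fold. For the main comparisons, counts over genes above background on both arrays are given beside them. Nfe2l2, the deleted gene, had processed signals of 7913 and 7478 in Nrf2+/+ non-tumor lung and tumor, and 5.13 and 6.94, not above background, in the Nrf2-/- pools. All 13 alveolar type 2 markers on the array were measured in this lung material, and the marker genes Col1a1 and Col4a3 were above background on all 4 arrays.

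In tumors, the collagen genes were lower more often than they were higher. In Nrf2+/+ tumor against Nrf2+/+ non-tumor lung, 3 of 33 measured past 2-fold higher (8.08% of all genes) and 13 past 2-fold lower (15.3% of all genes). Among the 28 collagen genes above background on both of these arrays, 3 were higher (7.86% of all such genes) and 9 lower (10.5%). The other 4 of the 13 were not above background in Nrf2+/+ tumor, with bounds of 1.80-fold for Col11a1, 1.67-fold for Col26a1 and 1.28-fold for Col17a1, and none for Col22a1. In Nrf2-/- tumor against Nrf2-/- non-tumor lung, 1 of 33 was higher (5.43% of all genes) and 8 were lower (9.13%). Among the 30 above background on both arrays, 1 was higher (4.88%) and 6 were lower (5.27%). The sign was the same in both genotypes for 30 of the 33, and 15 of the 33 passed 2-fold neither here nor between the genotypes. The share over all genes was not computed for either count, so neither sets the collagens apart. Of the genes above background on both arrays, Col2a1, Col6a1 and Col27a1 in Nrf2+/+ and Col13a1 and Col27a1 in Nrf2-/- came under 2-fold in at least 1 alternative setting.

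Across the 4 arrays, both tumor pools were above both non-tumor pools for 4 collagen genes (30.4% of all genes), namely Col5a3, Col11a2, Col15a1 and Col18a1. A dimmer Col11a2 probe went the other way (below). Both tumor pools were below both non-tumor pools for 17 of 33 (33.3% of all genes). One collagen gene, Col15a1, measured past 2-fold higher in tumors of both genotypes (3.51% of all genes), and 8 measured past 2-fold lower in both (6.69%). Counting only the 28 collagen genes above background on all 4 arrays, 1 was higher in both (3.46%) and 6 were lower in both (4.56%): Col4a3, Col4a6, Col8a2, Col13a1, Col23a1 and Col27a1. The other two of the 8, Col11a1 and Col26a1, were not above background in either tumor, and their bounds are under 2-fold or cannot be given.

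**Figure D1:**
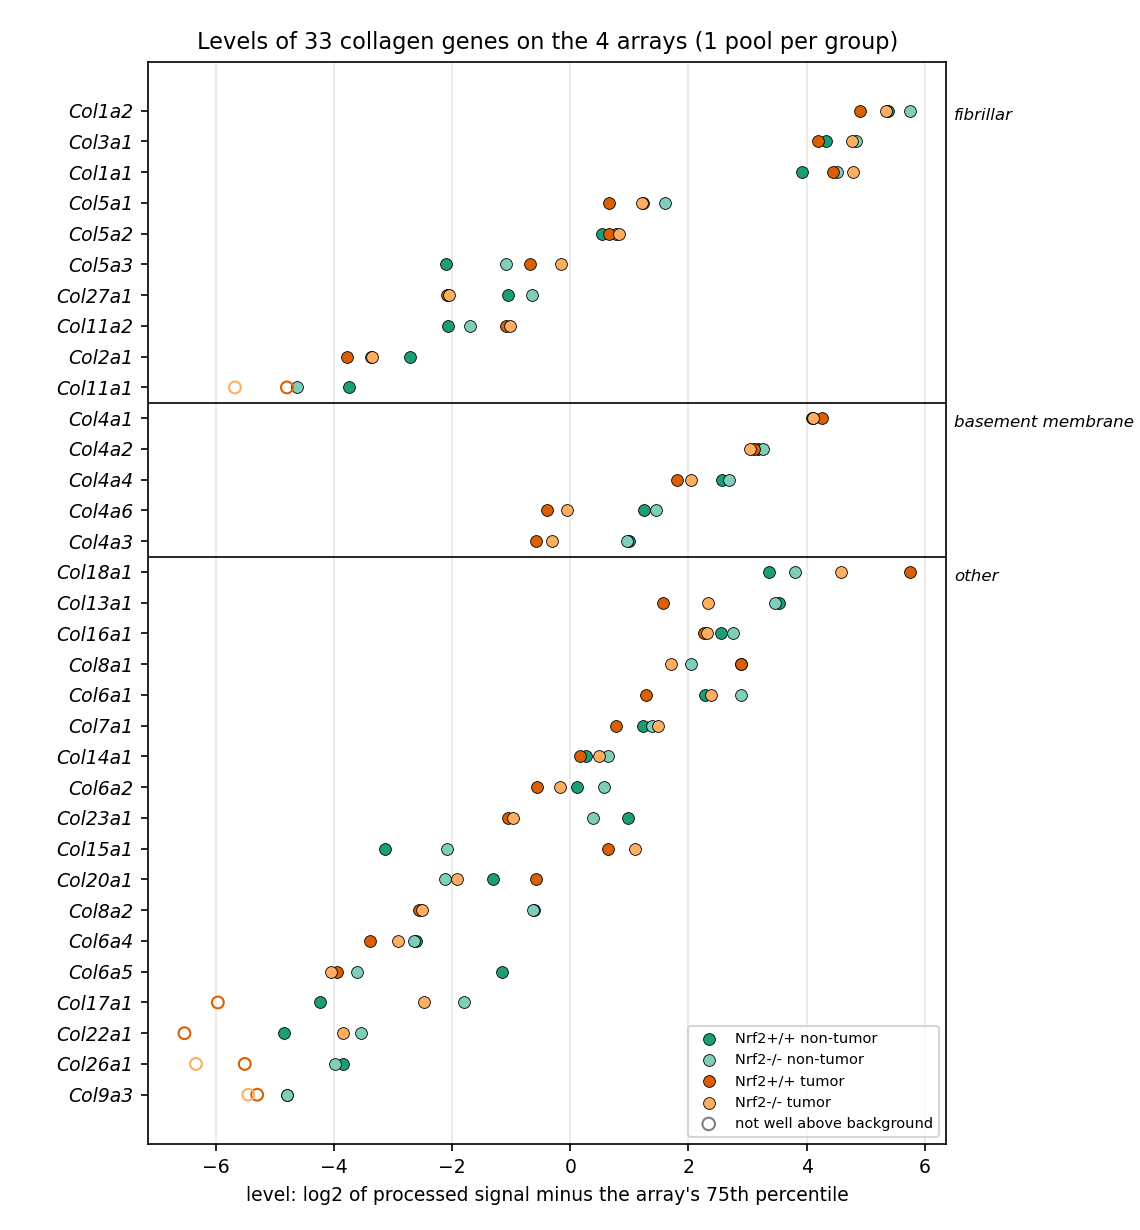
Levels of the 33 collagen genes, ordered by class (fibrillar, basement membrane, other) and by mean level. The x axis is the log2 of the processed signal minus the 75th percentile of the array, each point is 1 pool, and open points were not well above background. Col15a1 and Col18a1 show both tumor points to the right of both non-tumor points, and Col13a1, Col8a2, Col23a1, Col4a3 and Col4a6 show them to the left.

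Of the 3 classes, the fibrillar collagens had the median difference closest to that of all genes in both tumors. Single fibrillar genes went both ways. In Nrf2+/+ tumor their differences ran from -1.07 to 1.42, with 1 of 10 past 2-fold higher (8.08% of all genes) and 3 lower (15.3%). Relative to the median of all genes, the fibrillar collagens stood at -0.27 in Nrf2+/+ tumor and 0.01 in Nrf2-/- tumor. The type IV collagens stood at -0.72 and -0.61, and the other collagens at -0.70 and -0.41. In these bulk samples, fewer cells of a type and less RNA per cell cannot be told apart. Markers of cells that make collagen were lower in the same tumors. Of 19 measured fibroblast markers that are not collagens, 12 were at least 2-fold lower in Nrf2+/+ tumor and 7 in Nrf2-/- tumor, with none higher, and their mean log2 level was 2.07, 2.12, 0.96 and 1.39 in the group order above. Of 16 endothelial markers, 12 and 6 were lower and none higher, and of 14 smooth muscle and pericyte markers, 7 and 8 were lower and 2 and 2 higher. The part these cells have in the collagen differences was not tested.

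The collagens with the largest excess in Nrf2+/+ tumor over its non-tumor lung were the multiplexins Col15a1 and Col18a1, basement membrane zone collagens whose C-terminal fragments are restin and endostatin. The relative level of Col15a1 was 0.114 and 0.235 in non-tumor lung and 1.55 and 2.14 in tumor, Nrf2+/+ first in each pair. Both tumor values were far above both non-tumor values, a difference of 3.76 ± 0.22 in Nrf2+/+ and 3.19 ± 0.21 in Nrf2-/-, or 13.5-fold and 9.10-fold. A dimmer Col15a1 probe, above background on 2 arrays, gave smaller differences of 0.31 and 1.78. For Col18a1 the relative level was 10.3 and 13.9 in non-tumor lung and 53.8 and 24.0 in tumor. Nrf2+/+ tumor had the highest value of the 4 pools, 5.23-fold above its non-tumor lung, while Nrf2-/- tumor was 1.72-fold above its own. The differences were 2.39 ± 0.20 and 0.78 ± 0.20, and a second Col18a1 probe, above background on all 4 arrays, gave 2.35 and 0.60. Type VII collagen (Col7a1), which forms the anchoring fibrils that tie basement membrane to stroma, had a relative level of 2.35 and 2.62 in non-tumor lung and 1.72 and 2.79 in tumor, with tumor differences of -0.45 and 0.09.

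The multiplexin Col18a1 was past 2-fold higher in Nrf2+/+ tumor and not in Nrf2-/- tumor. Col8a2, a network collagen, was low in tumors of both genotypes (below). The stretches directly upstream of their listed start sites are shown to set the sequence beside those values. They are 5′ to 3′ on the gene's strand, from RefSeq on build GRCm38.p6 (chr10:77166531-77166780, minus strand, and chr4:126286544-126286793, plus strand). Capitals mark matches, on either strand, to any of 4 motifs searched. The TATA box, searched as TATAAA, is present in 12.4% of the 32851 windows of 250 bases in the table. The motif CCAAT is present in 33.8% of those windows. The GC box, searched as GGGCGG, is present in 32.7% of them. The core of the antioxidant response element, searched as TGACNNNGC, is present in 10.2% of them.
Col18a1: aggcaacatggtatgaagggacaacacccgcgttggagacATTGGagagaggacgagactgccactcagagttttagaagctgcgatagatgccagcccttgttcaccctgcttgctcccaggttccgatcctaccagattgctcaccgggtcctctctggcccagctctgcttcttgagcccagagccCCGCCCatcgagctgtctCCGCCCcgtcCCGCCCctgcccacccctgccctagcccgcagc
Col8a2: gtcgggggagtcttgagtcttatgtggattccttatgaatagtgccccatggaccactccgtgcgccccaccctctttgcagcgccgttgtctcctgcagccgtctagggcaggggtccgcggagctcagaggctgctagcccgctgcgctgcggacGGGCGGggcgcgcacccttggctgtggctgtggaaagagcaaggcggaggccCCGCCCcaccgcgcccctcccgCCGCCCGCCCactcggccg
The Col18a1 stretch holds 3 GC boxes and 1 CCAAT box. The Col8a2 stretch holds 4 GC boxes, of which the last pair overlap, and no CCAAT box. Neither holds TATAAA or TGACNNNGC, and a match or its absence in these letters is a description of the window only. Of the 33 collagen genes, 25 had a window in the RefSeq table.

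Among the type IV collagens, the genes of the ubiquitous chains and of the tissue-restricted chains had different values. Col4a1 and Col4a2 encode the chains found in nearly all basement membranes. The relative level of Col4a1 was 17.1 and 17.3 in non-tumor lung and 19.2 and 17.2 in tumor, and its tumor differences were 0.16 ± 0.20 and -0.00 ± 0.20. Col4a2 was at 9.05 and 9.61 in non-tumor lung and 8.66 and 8.21 in tumor, with differences of -0.06 ± 0.20 and -0.23 ± 0.20. The Col4a1 pools lay within the software error of each other, and for Col4a2 only the Nrf2-/- tumor difference was just outside it.

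Col4a3 and Col4a4 encode chains of the specialised network of alveolar and glomerular basement membranes, the network affected in Alport syndrome. Relative levels of Col4a3 were 2.00 and 1.94 in non-tumor lung and 0.670 and 0.803 in tumor. Both tumor values were below both non-tumor values by 2.99-fold in Nrf2+/+ and 2.42-fold in Nrf2-/-, and a second Col4a3 probe gave differences of -1.78 and -1.20 beside -1.58 and -1.28. Col4a4 was at 5.90 and 6.47 in non-tumor lung and 3.49 and 4.15 in tumor. Its tumor values were also below both non-tumor values, at differences of -0.76 ± 0.20 and -0.64 ± 0.20, which did not reach 2-fold.

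Col4a6, whose chain pairs with that of Col4a5 in another restricted network, was at 2.37 and 2.73 in non-tumor lung and 0.759 and 0.966 in tumor. Its tumor pools were 3.13-fold and 2.83-fold below non-tumor lung. Its other probes put that difference at -0.88 and -0.50 (a probe above background on all 4 arrays) and at -1.98 and -1.25 (a dimmer one, above it on 2). The partner Col4a5, read by 1 probe, was not above background on any array. Alveolar type 1 cells contribute to the alveolar basement membrane, and of 13 measured markers of these cells, 8 were at least 2-fold lower in Nrf2+/+ tumor and 3 in Nrf2-/- tumor, with none higher. Alveolar type 2 markers went the other way, with 9 and 6 of 13 higher and none lower. Whether these cell types account for the Col4a3, Col4a4 and Col4a6 values was not tested.

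**Figure D2:**
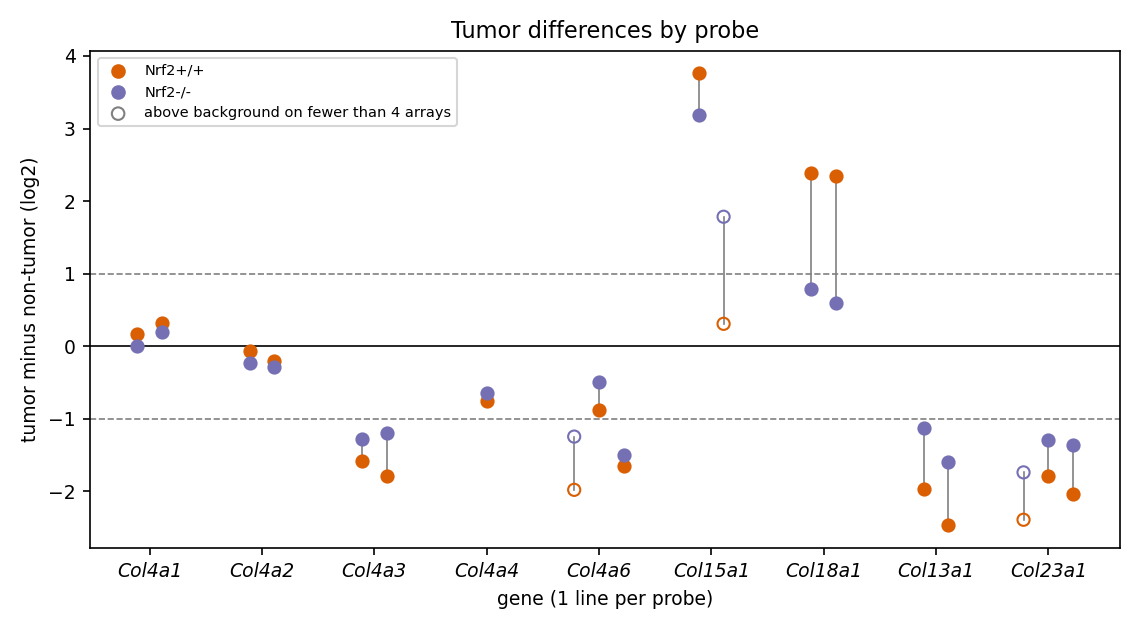
Tumor minus non-tumor difference (log2, y axis) for every probe above background on 1 or more arrays, for 9 collagen genes (x axis), Nrf2+/+ and Nrf2-/- joined by a line. Open points are probes above background on fewer than 4 arrays, and dashed lines mark 2-fold. The probes of Col4a3 and Col18a1 gave like values, while those of Col15a1 and Col4a6 were spread.

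The type IV genes lie in head-to-head pairs. For Col4a3 and Col4a4 only 1 window was listed, so no distance between their starts is given. Listed starts of Col4a1 and Col4a2 are 21 bases apart on opposite strands, and their windows cover 78 of the same genome positions. The Col4a5 and Col4a6 starts are 1343 bases apart on the X chromosome, and their windows share 0 bases. Of this pair 1 gene was measured here and the other was not above background, so the upstream stretches of both are given, trimmed to the bases outside annotated genes (build GRCm38.p6, chrX:141475169-141475369, plus strand, 201 bases, and chrX:141474096-141474326, minus strand, 231 bases), with capitals as above.
Col4a5: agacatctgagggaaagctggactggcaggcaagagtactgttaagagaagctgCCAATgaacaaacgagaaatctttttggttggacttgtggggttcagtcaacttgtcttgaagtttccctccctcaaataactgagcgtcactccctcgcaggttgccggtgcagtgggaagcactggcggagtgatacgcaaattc
Col4a6: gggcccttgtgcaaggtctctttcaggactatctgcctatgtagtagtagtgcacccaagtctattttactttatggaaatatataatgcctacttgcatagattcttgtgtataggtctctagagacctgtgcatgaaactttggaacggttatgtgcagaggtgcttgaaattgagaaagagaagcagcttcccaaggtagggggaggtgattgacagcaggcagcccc
The Col4a5 stretch holds 1 CCAAT box, present in 28.6% of windows cut to 201 bases. The Col4a6 stretch holds none of the 4 motifs searched, which at 231 bases are present in 11.8% (TATAAA), 32.3% (CCAAT), 30.0% (GGGCGG) and 9.24% (TGACNNNGC) of windows.

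The main interstitial fibrillar collagens differed little between tumor and non-tumor lung. Col1a1 and Col1a2 encode the chains of type I collagen, the most abundant fibrillar collagen of the lung. Relative levels of Col1a1 were 15.2 and 22.9 in non-tumor lung and 21.9 and 27.7 in tumor, and its tumor differences were 0.52 ± 0.20 and 0.27 ± 0.20. Those of Col1a2 were 41.4 and 53.6 in non-tumor lung and 30.0 and 40.7 in tumor, with differences of -0.47 ± 0.20 and -0.40 ± 0.20. In the main scaling the pair thus had opposite signs: Col1a1 was higher in each tumor than in the non-tumor lung of its genotype, and Col1a2 was lower. A second Col1a1 probe, above background on all 4 arrays, gave 0.50 and 0.11. Spike-in scaling moved the Nrf2-/- tumor differences by -0.28, about the size of the Col1a1 difference there, so that sign depends on the scaling. Col3a1, the type III chain that co-assembles with type I in compliant tissue, was at 20.0 and 28.5 in non-tumor lung and 18.2 and 27.2 in tumor, with differences of -0.13 and -0.07, both inside the software error.

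Of the other fibrillar collagens, Col5a3, a chain of the type V collagen that nucleates fibrils, was the one with the largest tumor excess. Its relative level was 0.234 and 0.468 in non-tumor lung and 0.624 and 0.903 in tumor, which put tumor 2.67-fold and 1.93-fold above non-tumor lung. Col11a2, a chain of the type XI collagen of thin fibrils, was at 0.239 and 0.309 in non-tumor lung and 0.469 and 0.492 in tumor, just under 2-fold in Nrf2+/+ (difference 0.97 ± 0.21) and 0.67 ± 0.21 in Nrf2-/-. A dimmer Col11a2 probe, above background on 1 array, went the other way, at -1.53 and -0.15. With the mean of probes, the fitted tissue coefficient of Col11a2 was -0.01, beside 0.82 in the main setting. The other type V chains were Col5a1, with tumor differences of -0.56 and -0.39, and Col5a2, with 0.11 and 0.06.

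Lower values in Nrf2+/+ tumor were measured for Col27a1, Col2a1 and Col11a1, fibrillar collagens also made in cartilage. Col27a1 was at 0.484 and 0.642 in non-tumor lung and 0.236 and 0.241 in tumor, at differences of -1.04 ± 0.21 and -1.41 ± 0.21. Col2a1, the main collagen of cartilage, was at 0.152 and 0.0962 in non-tumor lung and 0.0726 and 0.0983 in tumor, 2.10-fold lower in Nrf2+/+ tumor and at 0.03 ± 0.27 in Nrf2-/- tumor. Col11a1 was above background in the non-tumor pools only, at 0.0750 and 0.0405, which puts Nrf2+/+ tumor lower by at least 1.80-fold and allows no bound in Nrf2-/-. Of 14 cartilage markers that are not collagens, 7 were not above background on any array (Matn1, Matn3, Cnmd, Sox5, Hapln1, Snorc and Ucma), and of the other 7 measured ones 2 were higher by 2-fold or more in Nrf2+/+ tumor and 3 were lower.

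The transmembrane collagens span the plasma membrane and can be shed, and all 3 measured ones were lower in tumors of both genotypes. Col13a1, found at cell-matrix adhesions, was at 11.6 and 11.0 in non-tumor lung and 2.97 and 5.05 in tumor. Nrf2+/+ tumor was 3.90-fold and Nrf2-/- tumor 2.19-fold below non-tumor lung. Col23a1 was at 1.97 and 1.31 in non-tumor lung and 0.479 and 0.514 in tumor, 4.12-fold and 2.56-fold lower in tumor, and its other probe above background on all 4 arrays gave -1.78 and -1.29. Col17a1, the hemidesmosomal collagen that anchors epithelium, was not above background in Nrf2+/+ tumor, and it is described with the genotype differences.

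Among the short-chain network collagens, Col8a2 and Col8a1, whose products assemble into hexagonal lattices, had different values in tumor. Col8a2 was at 0.657 and 0.649 in non-tumor lung and 0.169 and 0.175 in tumor, 3.88-fold and 3.71-fold lower in tumor, with both tumor pools close to each other and far below both non-tumor pools. Col8a1 was at 7.43 and 4.14 in non-tumor lung and 7.37 and 3.25 in tumor, with tumor differences of -0.01 and -0.35.

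The beaded filament collagens of type VI form microfibrils around cells. On the probe used for each, all 4 measured genes were below non-tumor lung in both genotypes. Col6a1 was at 4.84 and 7.39 in non-tumor lung and 2.42 and 5.23 in tumor, 2.00-fold lower in Nrf2+/+ tumor and 1.41-fold lower in Nrf2-/- tumor. Col6a2 differed by -0.69 and -0.74, and Col6a4 by -0.78 ± 0.26 and -0.26 ± 0.25. A dimmer Col6a4 probe, above background on 3 arrays, gave -0.73 and 0.25, so its sign in Nrf2-/- differed between probes. Col6a5 was at 0.448 and 0.0820 in non-tumor lung and 0.0648 and 0.0607 in tumor. Its value in Nrf2+/+ non-tumor lung stood apart from the other 3 pools, which were alike, so the tumor difference was -2.79 ± 0.28 in Nrf2+/+ and -0.43 ± 0.34 in Nrf2-/-, and the gap between those was 2.36 ± 0.44. That pool is the one on its own slide.

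Of the 5 measured fibril-associated collagens, which decorate fibril surfaces, none was past 2-fold in tumor on arrays above background. Col14a1 differed by -0.10 and -0.16 in tumor, and Col16a1 by -0.28 and -0.45. Col22a1 was not above background in Nrf2+/+ tumor and differed by -0.30 in Nrf2-/-. Col20a1 was higher in tumor by 0.73 and 0.21, and Col9a3 was near background at 0.0359 and 0.0361 in non-tumor lung. Col26a1, which stands in no class, was above background only in non-tumor lung, at 0.0695 and 0.0635, which makes tumor at least 1.67-fold and at least 1.26-fold lower.

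**Figure D3:**
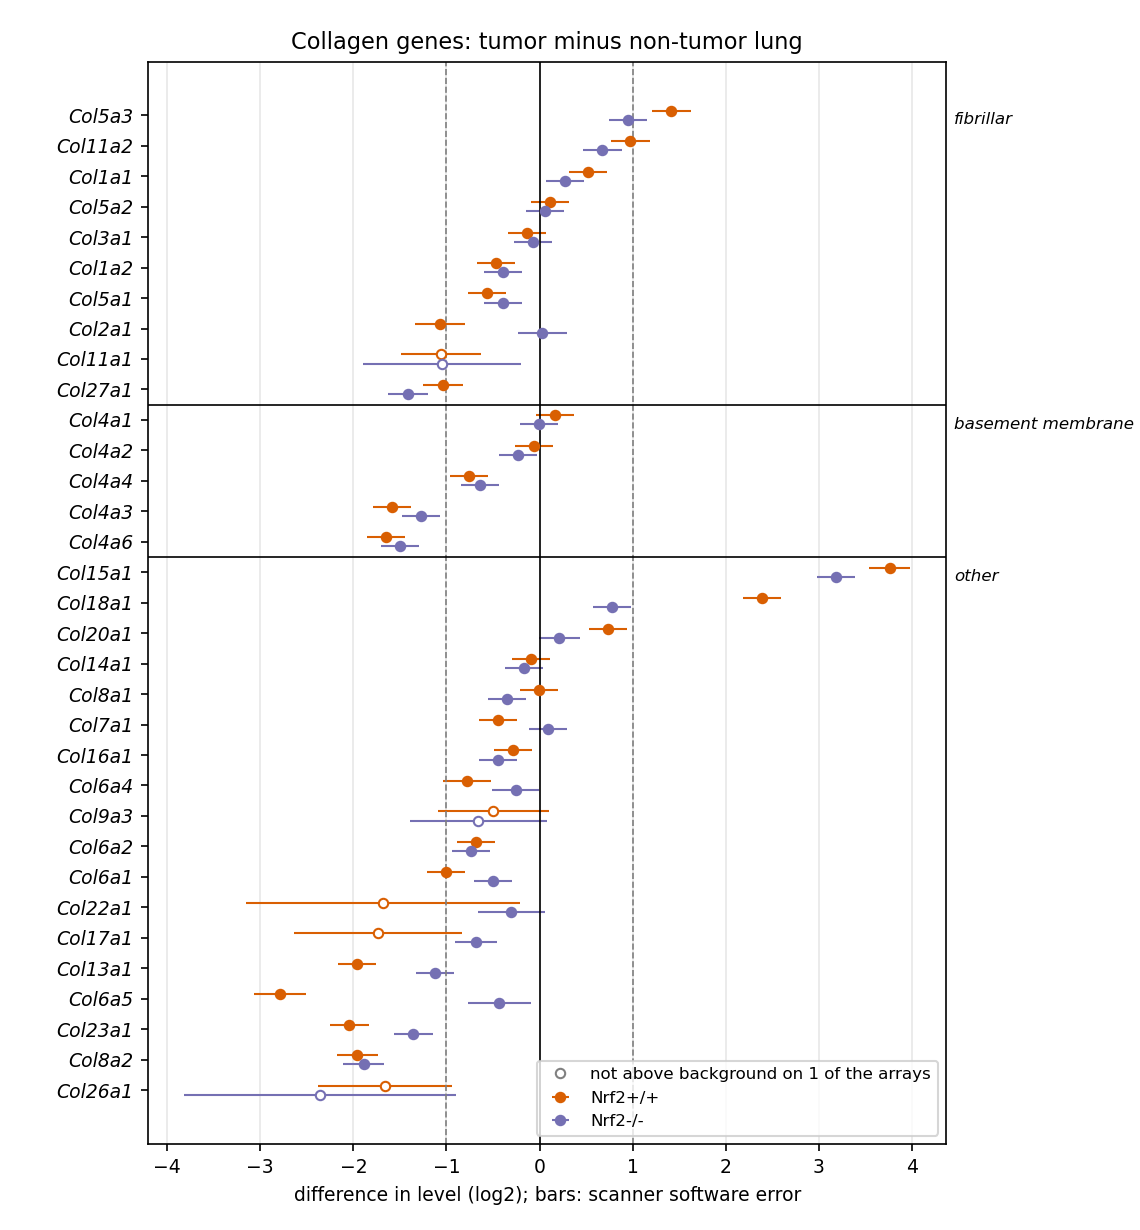
Tumor minus non-tumor difference (log2, x axis) of each collagen gene in Nrf2+/+ and Nrf2-/- mice, by class. Bars are the scanner software's error, dashed lines mark 2-fold, and open points are pairs with an array not above background. Col15a1 lies beyond 3 in both genotypes, the type IV genes run from Col4a1 near 0 to Col4a6 near -1.65 in Nrf2+/+, and Col6a5 and Col18a1 show wide gaps between the genotypes.

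The only test the design allows is a limma additive fit of tissue plus genotype over all 4 arrays, in which 1 residual degree of freedom, the departure from additivity, stands in for error. That departure cannot be told apart from a slide effect, since the Nrf2+/+ non-tumor array had its own slide. Both coefficients also use that array. No collagen gene passed an adjusted p (Benjamini-Hochberg over 20553 genes) of 0.05 for tissue, as for 0% of all genes, and none did for genotype, again 0% of all genes. At an unadjusted p under 0.05, 17 of 33 collagen genes were picked for tissue (29.7% of all genes) and 9 for genotype (9.29%). The lowest adjusted p of limma among the collagen genes for tissue was 0.0707, shared by Col15a1, Col4a6 and Col8a2. The fitted Col15a1 tissue coefficient was 3.47 with a standard error of 0.22. In this limma fit the lowest adjusted p for genotype was 0.301, for Col17a1, whose coefficient was 2.96 with a standard error of 0.33. Under 4 of 8 alternative settings the tissue count was between 8 and 13, where between 10.5% and 23.7% of all genes were also called. Col17a1 passed for genotype under 1 of the 8, scaling on the array median.

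Fewer collagen genes passed 2-fold between the genotypes than between tumor and non-tumor lung. In non-tumor lung, 4 of 33 collagen genes measured past 2-fold higher in Nrf2-/- (3.04% of all genes) and 1 lower (4.61%). All 33 were above background on both of these arrays, where 1.76% of all such genes were higher and 2.50% lower. In tumor, 3 of the 30 measured collagen genes were past 2-fold higher in Nrf2-/- (4.29%) and 3 lower (3.67%). Of the 28 above background on both tumor arrays, 1 was higher (2.80%) and 3 were lower (1.87%). In both tissues 2 of 30 measured past 2-fold higher in Nrf2-/- (0.974%), Col17a1 and Col22a1, and 0 lower (1.16%), although the tumor bound of Col22a1 is under 2-fold. Both Nrf2-/- pools were above both Nrf2+/+ pools for 8 of 33 (11.0%), namely Col1a1, Col3a1, Col5a2, Col6a1, Col7a1, Col14a1, Col17a1 and Col22a1, and below them for 2 (12.4%), Col8a1 and Col20a1.

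The fibrillar collagens were mostly on the higher side in Nrf2-/- without reaching 2-fold. Relative to all genes, their median was 0.36 in non-tumor lung and 0.46 in tumor, against 0.07 and 0.28 for type IV and 0.07 and 0.38 for the others. In tumor all 9 measured fibrillar collagens were above 0 (46.3% of all genes), and 8 of 10 were above 0 in both tissues (28.9% of all genes). The tumor values of Col27a1 (0.03 ± 0.22), Col11a2 (0.07 ± 0.21) and Col5a2 (0.18 ± 0.20) were inside the software error. Spike-in scaling moved genotype differences in tumor by -0.10. That shift is larger than the Col27a1 and Col11a2 values, so those signs and these counts depend on the scaling. Col1a1 was higher by 0.59 ± 0.20 in non-tumor lung and 0.34 ± 0.20 in tumor, Col1a2 by 0.37 ± 0.20 and 0.44 ± 0.20, and Col3a1 by 0.51 ± 0.20 and 0.58 ± 0.20. Col5a3 was at 1.00 ± 0.21 in non-tumor lung, just at the 2-fold mark and under it in 4 alternative settings, and at 0.53 ± 0.21 in tumor. Since the Nrf2-/- minus Nrf2+/+ and tumor minus non-tumor values use the same 4 arrays, they are not separate evidence of one another. Beside these values, the median Nrf2-/- minus Nrf2+/+ difference of fibroblast markers was -0.01 (non-tumor) and 0.49 (tumor), and that of mesothelial markers 1.19 and 1.17, with 5 of 8 and 5 of 7 at least 2-fold higher. The part of these cells in the collagen values was not tested.

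The upstream stretches of Col1a2 and Col3a1, which had like genotype values in both tissues, are given with the same capitals (build GRCm38.p6, chr6:4505368-4505617, plus strand, and chr1:45311288-45311537, plus strand).
Col1a2: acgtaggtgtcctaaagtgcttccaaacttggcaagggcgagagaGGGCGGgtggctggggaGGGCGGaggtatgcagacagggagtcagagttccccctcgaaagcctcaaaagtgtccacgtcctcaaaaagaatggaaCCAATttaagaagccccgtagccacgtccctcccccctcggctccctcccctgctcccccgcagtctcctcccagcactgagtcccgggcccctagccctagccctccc
Col3a1: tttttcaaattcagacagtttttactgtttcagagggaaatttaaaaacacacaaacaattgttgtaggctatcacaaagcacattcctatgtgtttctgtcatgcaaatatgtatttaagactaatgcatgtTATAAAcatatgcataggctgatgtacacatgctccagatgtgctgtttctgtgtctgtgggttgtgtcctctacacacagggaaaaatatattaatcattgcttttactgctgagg
The Col1a2 stretch holds 2 GC boxes and 1 CCAAT box, and the Col3a1 stretch holds 1 TATAAA. Neither holds TGACNNNGC, and the pair share none of the 4 motifs.

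Col17a1 had the largest excess in Nrf2-/- among the collagens in non-tumor lung. Its relative level was 0.0534 and 0.288 in non-tumor lung and 0.0160 and 0.180 in tumor. Both Nrf2-/- pools were above both Nrf2+/+ pools, by 5.39-fold in non-tumor lung and by at least 4.33-fold in tumor, where Nrf2+/+ was not above background. A second Col17a1 probe was not above background on any array. Col22a1, a fibril-associated collagen of tissue junctions, was at 0.0347 and 0.0861 in non-tumor lung and 0.0108 and 0.0698 in tumor, higher in Nrf2-/- by 2.48-fold in non-tumor lung and by at least 1.68-fold in tumor. With normexp background correction these Col22a1 differences were 0.53 and 0.39, under 2-fold. Krt5, a keratin of basal cells that carry hemidesmosomes, differed by 1.26 in non-tumor lung and was not above background in either tumor. It was the only 1 above 0 of 7 airway ciliated and basal markers measured in non-tumor lung, where their median difference was -0.26. The basal cell marker Trp63 was not above background on any array. The part of these cells in the Col17a1 values was not tested.

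Col6a1 was 2.16-fold higher in Nrf2-/- tumor than in Nrf2+/+ tumor and differed by 0.61 ± 0.20 in non-tumor lung. In the other direction, Col8a1 differed by -0.84 ± 0.20 in non-tumor lung and -1.18 ± 0.20 in tumor, where Nrf2-/- was 2.27-fold lower. Col20a1 was at 0.403 and 0.229 in non-tumor lung and 0.671 and 0.266 in tumor, lower in Nrf2-/- by 1.76-fold and 2.52-fold. Col6a5 was lower in Nrf2-/- by 5.47-fold in non-tumor lung, and its tumor difference was -0.10 ± 0.37.

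For Col18a1 the genotype difference had opposite signs in the tissues, 0.44 ± 0.20 in non-tumor lung and -1.17 ± 0.20 in tumor. The tumor difference was thus smaller by -1.60 ± 0.29 in Nrf2-/- than in Nrf2+/+, and the second probe gave 0.43 and -1.31. This gap includes the array on its own slide, and within the shared slide the tumor difference was 0.78, under 2-fold. Col15a1, the other multiplexin, was higher in Nrf2-/- in both tissues, at 1.04 ± 0.22 and 0.47 ± 0.20, although its dimmer probe gave -0.90 in non-tumor lung. The non-tumor value came under 2-fold in 3 alternative settings, at 0.97, 0.81 and, with the mean of probes, 0.07.

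The upstream stretches of Col8a1 and Col17a1, lower and higher in both Nrf2-/- pools, are given with the same capitals (build GRCm38.p6, chr16:57754738-57754987, minus strand, and chr19:47692043-47692292, minus strand).
Col8a1: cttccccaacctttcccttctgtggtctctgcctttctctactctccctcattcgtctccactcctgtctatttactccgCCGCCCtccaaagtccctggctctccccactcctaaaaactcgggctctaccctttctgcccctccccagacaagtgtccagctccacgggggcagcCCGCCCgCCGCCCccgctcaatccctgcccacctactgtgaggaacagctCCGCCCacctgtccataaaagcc
Col17a1: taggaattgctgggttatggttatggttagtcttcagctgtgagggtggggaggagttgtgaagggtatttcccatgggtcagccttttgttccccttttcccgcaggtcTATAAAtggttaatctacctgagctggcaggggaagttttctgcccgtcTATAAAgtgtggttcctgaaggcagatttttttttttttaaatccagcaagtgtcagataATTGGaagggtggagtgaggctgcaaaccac
The Col8a1 stretch holds 4 GC boxes and no TATAAA or CCAAT. The Col17a1 stretch holds 2 matches to TATAAA and 1 CCAAT box on the opposite strand. TGACNNNGC was in none of the 8 stretches printed.

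**Figure D4:**
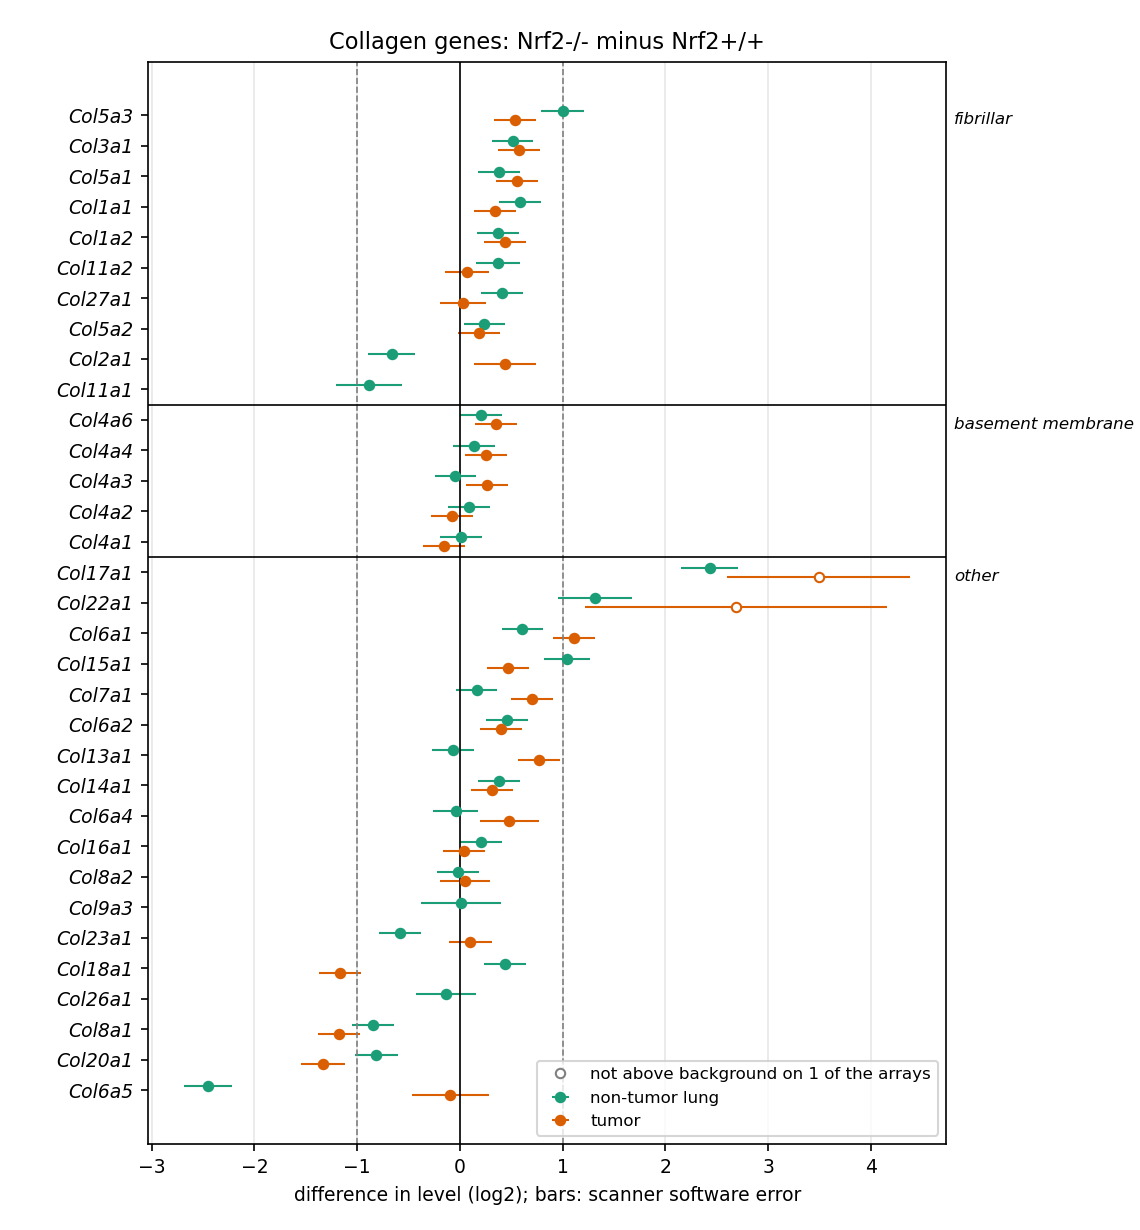
Nrf2-/- minus Nrf2+/+ difference (log2, x axis) of each collagen gene in non-tumor lung and in tumor, by class. Bars are the scanner software's error, dashed lines mark 2-fold, and open points are pairs with an array not above background. Fibrillar genes lie mostly between 0 and 1, Col17a1 and Col22a1 lie to the right in both tissues, and Col18a1 lies on opposite sides of 0.

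Genes that act on collagens were counted in 7 lists. Of all genes, 3.51% measured past 2-fold higher and 6.69% past 2-fold lower in tumors of both genotypes, and most lists held 0 to 2 such genes each way. In the list for chain hydroxylation, glycosylation and folding, 19 of 20 were measured, of which 1 measured past 2-fold higher and 2 lower in tumors of both genotypes. P4hb, the beta subunit of prolyl 4-hydroxylase, was higher by 1.30 ± 0.20 and 1.10 ± 0.20. Plod2, a lysyl hydroxylase of collagen telopeptides, differed by -1.82 ± 0.21 and -1.22 ± 0.21, and Colgalt2, a collagen galactosyltransferase, by -1.68 ± 0.22 and -1.33 ± 0.24. In procollagen processing and cross-linking, 1 of 9 was higher and 2 lower. Bmp1, the procollagen C-proteinase, was at 4.12 and 5.86 in non-tumor lung and 21.2 and 15.3 in tumor, higher by 2.37 ± 0.20 and 1.38 ± 0.20. Pcolce2, which enhances that proteinase, differed by -1.20 ± 0.20 and -1.05 ± 0.20. Pxdn, the peroxidasin that cross-links type IV collagen, was at 10.4 and 3.82 in non-tumor lung and 2.69 and 1.85 in tumor, lower in both tumors and also 2.71-fold lower in Nrf2-/- than in Nrf2+/+ non-tumor lung.

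Of 16 measured fibril-binding proteoglycans and partners, 1 was higher and 4 were lower in tumors of both genotypes. Thbs2, a matricellular protein that affects fibril shape, was higher by 2.25 ± 0.31 and 1.63 ± 0.24. Ogn and Aspn, small leucine-rich proteoglycans, differed by -1.64 ± 0.20 and -1.12 ± 0.20, and by -1.32 ± 0.25 and -1.43 ± 0.29. Tnxb, a tenascin that links fibrils, differed by -1.68 ± 0.20 and -1.16 ± 0.20, and Omd was not above background in tumor, which makes it at least 1.41-fold and at least 1.33-fold lower. Tnc, another tenascin, was 2.45-fold higher in Nrf2-/- non-tumor lung, and Dpt was 2.29-fold higher in Nrf2-/- tumor.

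Among 15 measured basement membrane partners, 0 measured past 2-fold higher and 1 lower in tumors of both genotypes. Lama2, a chain of muscle and mesenchymal laminin, was at least 2.83-fold and at least 2.51-fold lower, and it was not above background in either tumor. Fras1, which anchors epithelium during development, was at 0.357 and 0.353 in non-tumor lung and 0.744 and 0.142 in tumor, 5.25-fold lower in Nrf2-/- tumor than in Nrf2+/+ tumor. Lama1 was at least 1.71-fold higher in Nrf2-/- non-tumor lung, the one pool in which it was above background.

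Among 10 measured collagen receptors, 1 was higher and 2 were lower in tumors of both genotypes. Adgrg1, an adhesion receptor for type III collagen, was higher by 1.92 ± 0.20 and 1.25 ± 0.20. Adgrg6, a receptor for type IV collagen, differed by -1.84 ± 0.20 and -1.25 ± 0.20. Gp6, the platelet collagen receptor, was lower in tumor by 4.57-fold in Nrf2+/+ mice and by at least 3.33-fold in Nrf2-/- mice, and in non-tumor lung it was lower by 3.72-fold without Nrf2. The integrin subunit Itga2 was at least 2.39-fold higher in Nrf2-/- tumor, and Itga11, the fibroblast collagen integrin subunit, was 2.50-fold lower in Nrf2-/- non-tumor lung.

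Among the 10 collagen breakdown genes, none was at least 2-fold different in the same direction in tumors of both genotypes, while without Nrf2 4 were higher in tumor (4.29% of all genes) and 2 in non-tumor lung (3.04%), with none lower. Timp1, an inhibitor of collagen-degrading metalloproteinases, was at 1.06 and 6.32 in non-tumor lung and 2.58 and 6.85 in tumor, 5.98-fold and 2.66-fold higher in Nrf2-/-. Ctsk, a lysosomal collagenase, was at 0.207 and 0.907 in non-tumor lung and 0.564 and 1.20 in tumor, 4.37-fold and 2.13-fold higher. Mmp9, a gelatinase, was 3.36-fold higher in Nrf2-/- tumor, and Mmp13, a collagenase, was 2.34-fold higher there. Of 16 TGF-beta inputs and readouts, the receptor gene Tgfbr1 was higher in both tumors, by 1.06 ± 0.20 and 1.10 ± 0.20, and the co-receptor Tgfbr3 was at least 2.35-fold and at least 1.45-fold lower.

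**Figure D5:**
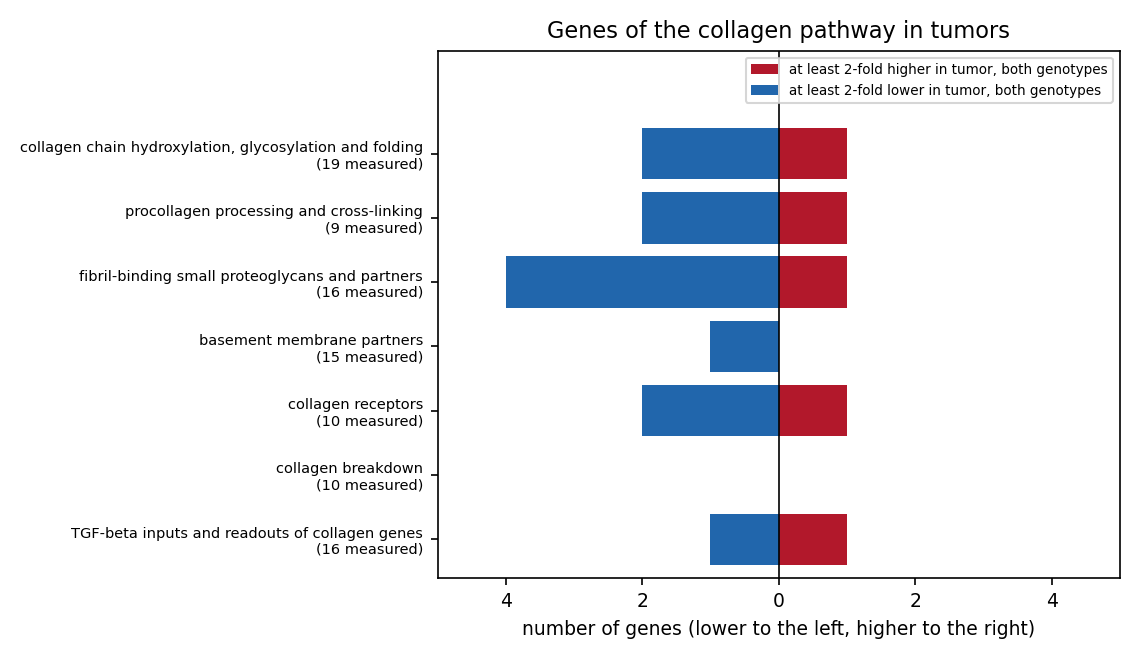
Number of genes in each of the 7 lists (y axis) that were at least 2-fold higher (to the right) or lower (to the left) in tumors of both genotypes, of the number measured. One gene was higher in 5 of the 7 lists and none in collagen breakdown or the basement membrane partners, and lower genes ranged from 0 in collagen breakdown to 4 in the proteoglycan list.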

How the data were processed

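Total RNA pooled from 8 mice per group was labelled with Cy3 from 500 ng and hybridised to 1 Agilent whole-mouse array (design 014868) per group, per the labels' protocols and file headers. Spots were read with Feature Extraction 10.7.3.1, per the file headers. The values deposited by the authors are linear spot intensity, background-subtracted and detrended per the file headers. Whether arrays were normalized to one another is not given in the sources used here. Values in the submitters' table equalled the processed signal within 0.497%. Genes were named by the accession of each probe through RefSeq (GRCm38.p6): 26686 probes had a symbol and 14484 did not. Control probes and 4 non-uniform probes of 41174 were dropped.

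The log2 processed signal minus each array's 75th percentile was used. Spots of a probe were averaged, and a gene was represented by its probe with the highest mean level. A gene was counted at 2-fold where 1 or both of the 2 arrays compared were well above background. The fit used limma 3.58.1 in R 4.3.3 (lmFit, eBayes, prior df 2.18). It was also run on simulated additive data without a slide effect, which cannot show how its error term behaves here. Python 3.11.15, numpy 2.4.6, pandas 2.3.3 and matplotlib 3.10.9 did the rest. Alternatives covered scaling on the median, by quantiles, on 7 spike-in probes and on probes above background on all arrays, normexp (offset 50), the value table, the mean of probes, a filter on all 4 arrays and a wider basement membrane class. Normexp had been planned on the mean spot signal and was run on the median spot signal instead. The named genes were members at least 2-fold different in any comparison, type IV pairs, the 3 brightest of each class, and, of the 7 pathway lists, genes 2-fold different the same way in both tumor comparisons or furthest from 0 by genotype; others were named after their values were seen. One gene of the basement membrane partner list is not reported here and was left out of its counts. Marker lists (9) covered fibroblast, smooth muscle and pericyte, endothelial, alveolar type 1 and 2, mesothelial, cartilage, Schwann and airway cells. The members and lists were chosen with earlier results of these data known. Arrays limit the precision by their number: 1 per group.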

Additional observations from a re-analysis of the deposited data

Results flagged for a closer look

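Col18a1 was singled out because its genotype difference had opposite signs in the tissues: 0.44 in non-tumor lung and -1.17 in tumor, a gap of -1.60 on the log2 scale with a software error of 0.29. With 1 pool per group the difference between the tissues was not tested. The Nrf2+/+ non-tumor array had its own slide, so slide and group cannot be told apart in this gap, and within the shared slide the tumor difference was 0.78. A second Col18a1 probe gave 0.43 and -1.31. The tumor genotype value lay between -1.27 and -1.15 under the 8 alternatives.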

How the results depend on the processing

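Of the 36 gene differences past 2-fold, 21 stayed past it in every alternative that measured them, and of 278 values under alternatives 276 kept their sign. Part of these values could not move. The all-array filter leaves each difference as it was, and the value table holds nearly the same signals. The mean of probes changes only genes with more than 1 probe above background. Reversed values were Col22a1 in Nrf2+/+ tumor at 0.060 and Col11a1 in Nrf2-/- tumor at 0.14, both with normexp, and both genes were dim there. Scaling on the median gave 5 collagen genes higher in Nrf2+/+ tumor and 2 in Nrf2-/- tumor, and normexp gave 7 and 5 lower. In non-tumor lung, genes higher in Nrf2-/- numbered 2 with the percentile over probes above background on all arrays, 1 with normexp and 2 with the all-array filter, and genes lower numbered 2 with normexp and 2 with the mean of probes. In tumor, 1 was higher in Nrf2-/- with the all-array filter. The shares over all genes under these settings were not computed, so these counts do not set the collagens apart from the whole array. Relative to all genes, the Nrf2+/+ tumor median of the fibrillar class was -0.50 with quantile normalization, that of the others -0.39 with normexp (-0.19 in Nrf2-/-), and that of a basement membrane class widened by Col7a1, Col15a1, Col17a1 and Col18a1 was -0.42 (-0.19 in Nrf2-/-). The limma tissue fit, at an adjusted p of 0.05, called 8 members with scaling on the median (10.5% of all genes), 9 with spike-ins (14.0%), 10 with normexp (15.5%) and 13 of 28 with the all-array filter (23.7%), and the genotype fit called 1, Col17a1, with scaling on the median; the cause was not tested. Scaling on the median moved the median of all genes by 0.29 in Nrf2+/+ tumor and 0.14 in Nrf2-/- tumor, spike-in scaling by -0.20 and -0.28. No paired analysis was possible because each group has 1 array and the labels number the arrays across groups. Blocking on slide uses up the last residual degree of freedom, so it gives values with no test: its tumor and genotype coefficients equal the Nrf2-/- tumor difference and the tumor genotype difference given above. Leaving out an array was not run, since each is its whole group. Dim genes such as Col9a3, Col11a1, Col22a1 and Col26a1 are limited by signal over background.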
